A study of Mus musculus with 24 samples.

Results

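10 genes that mark fat cells were followed across the plantaris muscle of mice kept in normal air or exposed to tobacco smoke. They are Adipoq, Lep, Retn, Cfd, Plin1, Cidec, Plin4, Fabp4, Pparg and Car3. They were chosen by gene symbol, and all 10 were found among the 47643 genes of the deposited count table. The plantaris is a fast hindlimb muscle, and a dissected piece can carry some of the fat that lies between and around its fibres. The values of these genes in each sample are given here as a description of that fat signal.

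All samples came from wild-type mice of the C57BL/6 strain, and the labels give neither age nor sex. 11 samples were from mice in normal air, and 13 were from mice exposed to tobacco smoke, with an exposure of 16 weeks given for the series. Muscles were frozen, and total RNA was made into 3′-end libraries (Lexogen QuantSeq 3′ FWD), in which a transcript is read near its poly(A) tail. The series title places the study in the context of long-lasting activity of the aryl hydrocarbon receptor, a transcription factor that binds components of smoke. The labels call the samples replicates and do not say whether each came from a separate mouse, so p-values measure only the spread between these samples.

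White adipocytes store triglyceride in a single large droplet and secrete hormones. Adiponectin (Adipoq), leptin (Lep), resistin (Retn) and adipsin (Cfd) leave the cell, whereas perilipin 1 (Plin1), Cidec and perilipin 4 (Plin4) sit on the lipid droplet. The nuclear receptor PPARγ (Pparg), working with the transcription factor C/EBPα (Cebpa), switches on most of these genes when a precursor becomes a fat cell. Some of the members are not exclusive to fat: Fabp4 is also made by capillary endothelium and macrophages, Plin4 by muscle fibres, and Car3, a carbonic anhydrase, by slow fibres.

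Promoter sequences of 4 members are shown, each with a match to a motif searched: Adipoq, against which the other members are set further on, Plin1 and Cidec, which were called as rising with it, and Lep, which was not called. Each is the 250 bases just before a RefSeq transcription start (GRCm38.p6), written 5′ to 3′ on the gene's own strand. 8 of the 10 members had an entry, and Fabp4 and Car3 did not. Capitals mark matches on either strand to the CCAAT box (CCAAT, or ATTGG when read from the other strand) or to the core of the C/EBP site (TTGCNNAA).
Adipoq: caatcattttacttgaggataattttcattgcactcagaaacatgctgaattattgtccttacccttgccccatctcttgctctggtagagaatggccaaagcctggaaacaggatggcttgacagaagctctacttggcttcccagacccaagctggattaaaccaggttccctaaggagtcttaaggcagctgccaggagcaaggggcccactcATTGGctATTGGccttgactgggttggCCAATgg
Plin1: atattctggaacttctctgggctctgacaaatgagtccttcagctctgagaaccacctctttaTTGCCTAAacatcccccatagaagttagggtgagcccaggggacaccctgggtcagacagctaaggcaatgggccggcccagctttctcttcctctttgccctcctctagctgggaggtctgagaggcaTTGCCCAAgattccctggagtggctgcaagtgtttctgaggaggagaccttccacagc
Cidec: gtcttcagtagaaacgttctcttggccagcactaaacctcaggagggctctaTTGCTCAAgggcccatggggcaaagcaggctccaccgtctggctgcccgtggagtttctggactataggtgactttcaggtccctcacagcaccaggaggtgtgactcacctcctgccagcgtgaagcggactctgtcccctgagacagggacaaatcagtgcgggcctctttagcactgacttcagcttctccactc
Lep: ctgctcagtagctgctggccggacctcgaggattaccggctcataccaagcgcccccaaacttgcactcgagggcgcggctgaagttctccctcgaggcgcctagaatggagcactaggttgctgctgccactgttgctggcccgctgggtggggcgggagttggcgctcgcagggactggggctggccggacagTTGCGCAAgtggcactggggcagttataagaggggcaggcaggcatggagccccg
The windows lie at chr16:23146286-23146535 on the plus strand for Adipoq, chr7:79732777-79733026 on the minus strand for Plin1, chr6:113434765-113435014 on the minus strand for the downstream start of Cidec, and chr6:29059971-29060220 on the plus strand for Lep. Adipoq held 3 CCAAT matches, beginning 34, 27 and 7 bases before the start, and no C/EBP core. Plin1 held 2 C/EBP cores, 187 and 58 bases before the start, Lep held 1 at 55 bases and Cidec 1 at 198 bases. No 2 of these matches overlapped. The windows of Cfd and Retn, of the upstream start of Cidec and of the most upstream start of Pparg held no match. Over all 32851 starts in the table, 33.8% of windows held CCAAT and 9.56% held TTGCNNAA, against 4 of the 11 starts of the members for each. TATAAA was in 12.4% of all windows and in 1 of the 11, a start of Pparg, and the consensus repeat named DR1, which PPARγ binds together with RXR, was in 0.0335% and in none of the 11. A match describes the letters only, and the files hold no measurement of binding.

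The 24 libraries held 2515697 to 4528845 counts. A floor of 3 counts therefore stood at 0.662 to 1.19 CPM, the count scaled to a fixed library size, for counting error only. The muscle label was met by the genes measured: 11 genes of fast fibres summed to 156827 to 246177 CPM in every library, and Myh4, the fastest myosin heavy chain, was at 30571 to 55257 CPM. The libraries also held reads of genes known from the male reproductive tract. Genes known from the epididymis (13 of 23 listed passed the expression filter) summed to 187 to 488 CPM, and 8 genes of the seminal vesicle summed to 647 to 1637 CPM, in all 24 libraries. Among them Gpx5, a glutathione peroxidase secreted by the epididymis, had 49.8 to 142 CPM, and Svs5, a seminal vesicle secretory protein, had 209 to 533 CPM. Liver genes summed to at most 3.46 CPM, genes of sperm cells to at most 2.31 CPM and genes of other organs to at most 0.750 CPM. These lists were chosen after the values were seen. Because some of them were called as rising with adiponectin, their values are given again beside those results.

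9 of the 10 members had counts in every library, at levels that for most of them differed several-fold from sample to sample. Adiponectin (chr16:23146536-23158028, GRCm38) was read 88 to 301 times per library. In air it ranged from 27.1 to 83.6 CPM with a median of 40.4, and in smoke from 32.8 to 84.5 CPM with a median of 41.8. The highest samples were air 1 at 83.6 CPM and smoke 2 at 84.5 CPM, and the groups overlapped over nearly their whole range. The coefficient of variation was 36.6% in air and 31.1% in smoke, where counting alone would give 8.06%. Without air 1 the air value was 21.4%, and without smoke 2 the smoke value was also 21.4%. On the log2 scale its spread within groups was larger than that of 97.8% of the 500 tested genes nearest to it in level.

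Of the lipid droplet proteins, Plin1 and Cidec varied widely between samples and Plin4 less so. Plin1 (chr7:79720218-79732903), the coat protein that guards the droplet against lipase, ranged from 20.7 to 92.4 CPM in air (median 27.7) and from 21.7 to 67.9 CPM in smoke (median 33.1). Cidec (chr6:113424634-113435760), which fuses small droplets into large ones, ranged from 20.7 to 87.2 CPM in air (median 38.2) and from 25.1 to 68.6 CPM in smoke (median 42.6). For both genes the highest air sample was air 1 and the highest smoke sample was smoke 2, and the groups overlapped. Their spread was larger than that of 99.2% and 98.2% of the 500 nearest genes. Single samples carried much of the spread of Plin1: its coefficient of variation in air was 61.2%, and 26.3% without air 1, and in smoke 34.6%, and 19.8% without smoke 2. Plin4 (chr17:56100591-56109803) was steadier, at 293 to 428 CPM in air (median 328) and 226 to 347 CPM in smoke (median 275), with a spread above 79.4% of its nearest genes. Plin4 shares its locus with Hdgfl2 on the other strand, and whether strand was used in counting is not given in the sources used here, so reads of the 2 genes may be mixed.

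The secreted products differed in which sample was highest. Adipsin (Cfd, chr10:79890853-79892655), the protease that starts the alternative complement pathway, ranged from 579 to 1262 CPM in air (median 783) and from 678 to 1710 CPM in smoke (median 972). Resistin (Retn, chr8:3655770-3660110), a hormone of mouse fat, ranged from 12.3 to 28.2 CPM in air (median 17.4) and from 12.7 to 45.6 CPM in smoke (median 21.6). Both were highest of all 24 samples in smoke 2, and neither was highest in air 1 among the air samples.

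Leptin (Lep, chr6:29060220-29073877), the satiety hormone that fat releases in step with its mass, was sparse. It had 2 to 85 counts per library and 351 in all, and counting alone would give a coefficient of variation of 26.1%. In air it ranged from 0.531 to 23.6 CPM with a median of 3.86, and in smoke from 1.10 to 5.76 CPM with a median of 2.64. Air 1 held 85 counts (23.6 CPM) and air 7 held 49 counts (13.5 CPM), above every smoke sample, whereas air 10 held 2 counts and air 11 and smoke 10 held 3, at or below the floor. Smoke 2, the sample with the most adiponectin, held 3.19 CPM of leptin, the third highest value of its group. Of the 9 members that passed the expression filter, leptin had the largest spread for its level, above 99.6% of its nearest genes.

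The last 3 members are a fatty acid carrier, a carbonic anhydrase and the nuclear receptor. Fabp4 (chr3:10204088-10208576), a carrier of fatty acids, ranged from 273 to 1242 CPM in air (median 514) and from 481 to 804 CPM in smoke (median 643). Its highest value was again air 1, and its coefficient of variation was 42.7% in air and 14.7% in smoke, a difference that was not tested. Without air 1 the air value was 25.4%. Car3 (chr3:14863512-14872523) varied least of all members relative to its mean, with 1.46-fold between the highest and the lowest sample against 3.12-fold for Adipoq. It was at 2630 to 3830 CPM in air (median 3194) and 2782 to 3796 CPM in smoke (median 3392). Its spread was above 59.6% of the 500 genes nearest in level, against 97.8% for Adipoq. Pparg (chr6:115360951-115490399) had 42 counts over all 24 libraries, 0 to 5 in each, and 17 libraries were under the floor of 3 counts. It did not pass the filter. It overlaps Gm44079 on the other strand, so its few reads may be mixed with those of that gene. Its mean was 0.390 ± 0.427 CPM (SD, n = 11) in air and 0.592 ± 0.375 CPM (SD, n = 13) in smoke, and a difference was not detectable at this depth (two-sided permutation test with 100000 resamples, p = 0.2289).

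**Figure D1:**
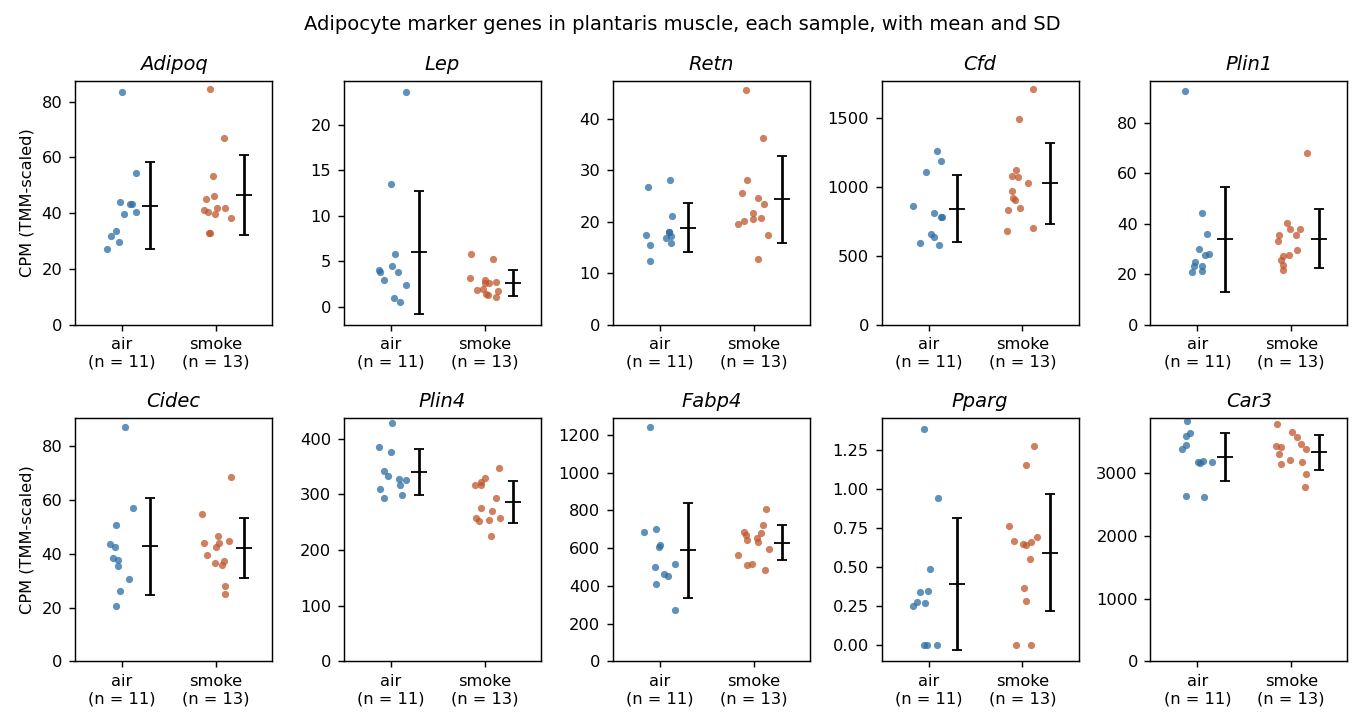
TMM-scaled CPM of the 10 members (vertical axes, starting at or just below 0) in 11 air and 13 smoke samples, 1 point per sample, with mean and SD at the right of each group. Single high samples stand out for Adipoq, Plin1, Cidec and Fabp4, 2 high air samples for Lep, and Car3 varies least relative to its mean.

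Whether smoke exposure went with more or less fat transcript was asked with edgeR's quasi-likelihood test, with genes called where the adjusted p was under 0.05. It called 1.92% of 10159 tested genes, 0.728% with more and 1.19% with less transcript in smoke. 1 of the 9 tested members was called. Plin4 fell from 340 ± 41.1 CPM (SD, n = 11) in air to 286 ± 37.4 CPM (SD, n = 13) in smoke. The log2 fold change was -0.25 with a standard error of 0.069 (adjusted p = 0.0481), and 12 of 13 smoke samples were below the air mean. In bulk muscle, fewer cells of a type and less RNA per cell cannot be told apart. This call lay close to the threshold. It was kept in 9 of 24 fits that each left out 1 sample and lost in the other 15, with an adjusted p between 0.0208 and 0.100, and it was also lost with upper-quartile scaling (adjusted p = 0.0512). The fold change itself stayed between -0.28 and -0.21 in all 24 of those fits, and with adiponectin held as a covariate it was -0.27 (adjusted p = 0.0335), in a fit that called 1.78% of genes (0.61% higher and 1.17% lower). The 15 samples were air 1, 3, 4, 5, 7, 8 and 11 and smoke 1, 3, 4, 5, 7, 8, 9 and 11.

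Leptin had the largest log2 fold change in size among the tested members and was not called. It was at 6.00 ± 6.77 CPM (SD, n = 11) in air and 2.63 ± 1.43 CPM (SD, n = 13) in smoke, and all 13 smoke samples were below the air mean. 3 air samples, air 1, 7 and 9, were above the highest smoke sample, and air 10 and 11 were below the lowest. The log2 fold change was -1.22 with a standard error of 0.39 and a 95% interval of -2.02 to -0.43 (adjusted p = 0.0914). With limma-voom it was -0.70 (adjusted p = 0.428). Leaving out air 1 brought it to -0.73 (adjusted p = 0.279), leaving out air 10 or air 11, the air samples with the fewest counts, brought it past the threshold at -1.35 and -1.34 (adjusted p = 0.0439 and 0.0455), and testing without the expression filter gave -1.23 (adjusted p = 0.0300), where 0.727% of 27644 genes were called (0.26% higher and 0.467% lower).

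The remaining secreted products had higher means in smoke and did not pass the test. Resistin was at 18.8 ± 4.76 CPM (SD, n = 11) in air and 24.3 ± 8.52 CPM (SD, n = 13) in smoke, with a log2 fold change of 0.37 and a 95% interval of 0.069 to 0.68 (adjusted p = 0.200). 11 of 13 smoke samples were above the air mean. Adipsin was at 841 ± 241.9 CPM in air, against 1026 ± 293 CPM with smoke, with a log2 fold change of 0.29 and a 95% interval of 0.016 to 0.56 (adjusted p = 0.285). Adiponectin itself had 42.8 ± 15.6 CPM in air and 46.5 ± 14.5 CPM in smoke, and its log2 fold change of 0.12 had an interval of -0.19 to 0.43 (adjusted p = 0.764). For the other 4 tested members the log2 fold change was 0.01 for Plin1 (interval -0.39 to 0.41), -0.02 for Cidec (-0.35 to 0.31), 0.10 for Fabp4 (-0.19 to 0.38) and 0.03 for Car3 (-0.086 to 0.15). The signs of Plin1 and Cidec changed when single samples were left out. The median over the 9 members was 0.03 and over all genes tested 0.0066.

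**Figure D2:**
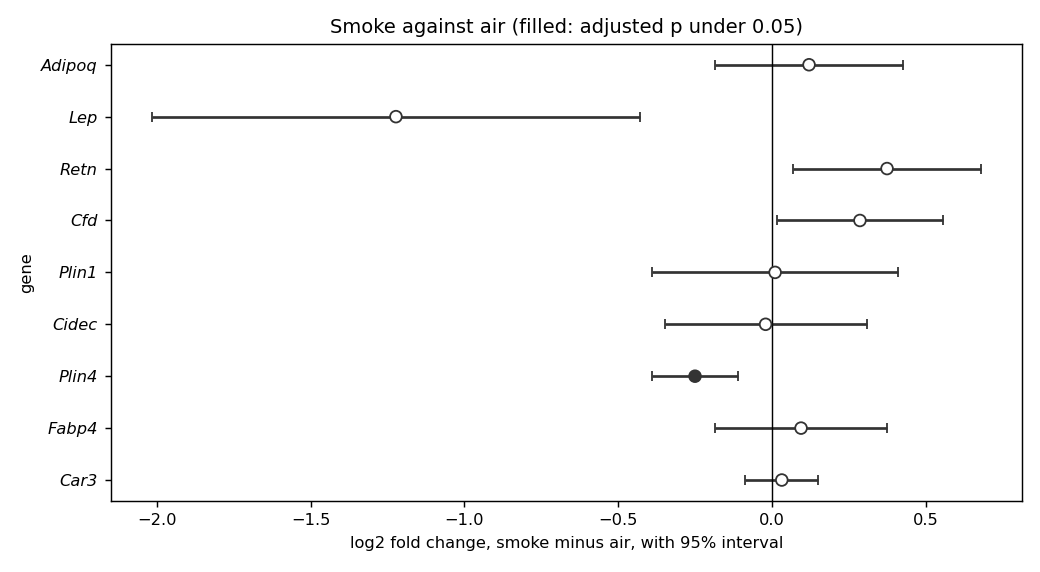
Log2 fold change, smoke minus air, of the 9 tested members (horizontal axis) with the 95% interval of edgeR's quasi-likelihood fit, with a filled point where the adjusted p was under 0.05. Plin4 at -0.25 is the filled point, Lep at -1.22 has the widest interval, and those of Adipoq, Plin1, Cidec, Fabp4 and Car3 include 0.

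The members were next compared among themselves. Every gene was fitted on the log2 CPM of adiponectin with the group as a further term, so that a slope of 1 means the same proportional change as adiponectin within a group. Adiponectin was not tested against itself, and a slope on it can be lowered by its own counting error. Of 10158 genes 0.984% were called, 0.945% rising and 0.0394% falling. 4 of the 8 members tested rose with adiponectin. Plin1 had the steepest of these slopes at 1.16 with a standard error of 0.11 (adjusted p = 4.85e-08). Cidec followed at 0.93 with a standard error of 0.11 (adjusted p = 2.24e-06), then Retn at 0.81 with 0.12 (adjusted p = 6.55e-05) and Cfd at 0.78 with 0.10 (adjusted p = 6.5e-06). These 4 calls held in all 24 fits that left out 1 sample. That of Retn was lost with a replicate block on 22 samples (adjusted p = 0.215) and in air alone (adjusted p = 0.830), where that of Cfd was lost too (adjusted p = 0.446).

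The other 4 did not pass. Leptin had a slope of 1.36 with a standard error of 0.37 (adjusted p = 0.0587), which came to 0.43 without air 1 (adjusted p = 0.754) and passed the threshold without air 7, air 11, smoke 10 or smoke 13. Fabp4 had 0.33 with a standard error of 0.15 (adjusted p = 0.353) and changed sign to -0.12 without air 1. Car3 had 0.17 (adjusted p = 0.280) and Plin4 0.11 (adjusted p = 0.628).

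**Figure D3:**
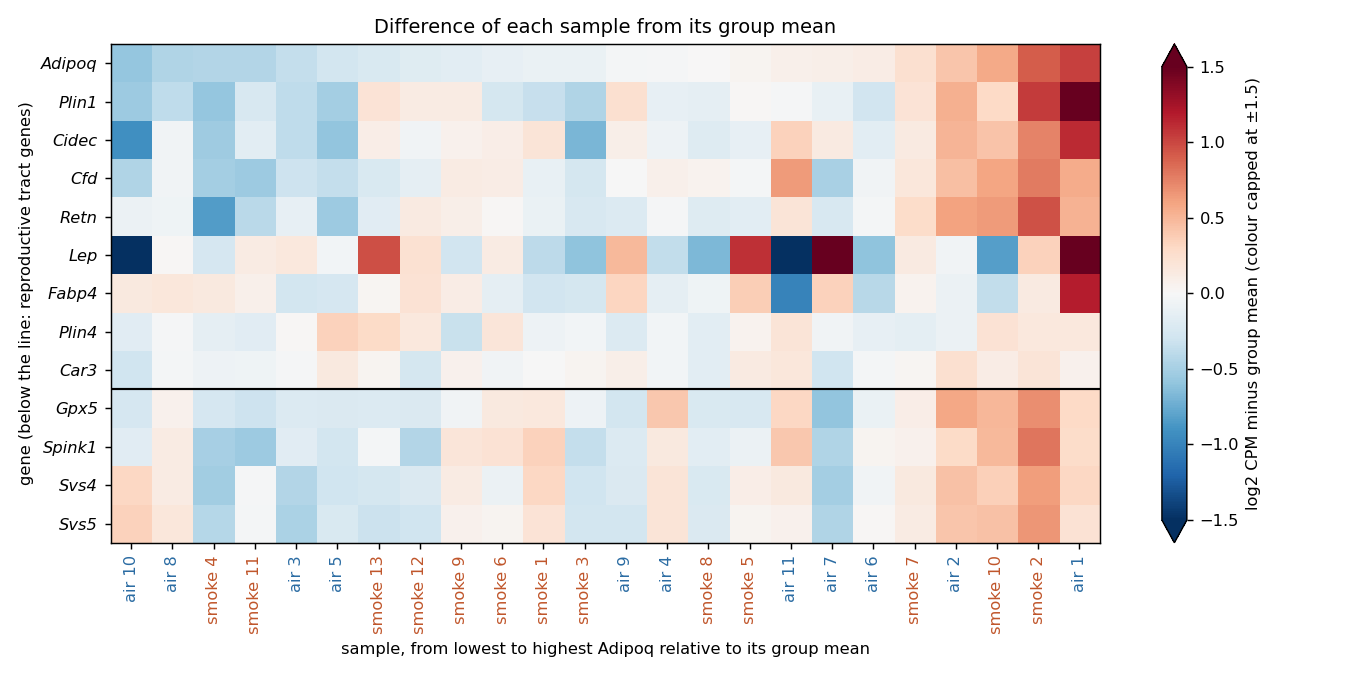
Log2 CPM of each gene minus the mean of its group (colour, capped at 1.5 either way) in the 24 samples (horizontal axis, blue names air, orange names smoke), ordered by Adipoq, for the 9 tested members and, below the line, 4 reproductive tract genes. Plin1, Cidec, Cfd and Retn darken with Adipoq at the right end, Lep does so in air 1 but little in smoke 2, and the 4 reproductive tract genes are at their highest in smoke 2.

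Within each group the same pairs were set against each other as correlations of log2 CPM, in a family of 58 relations with Benjamini-Hochberg adjustment. Adipoq and Plin1 had Pearson's r = 0.93 in air (permutation p = 0.00011, adjusted p = 0.00213; Spearman's rho = 0.82, permutation p = 0.00301) and r = 0.81 in smoke (permutation p = 0.00119, adjusted p = 0.0138; rho = 0.50, permutation p = 0.08585). Adipoq and Cidec had r = 0.91 in air (permutation p = 0.00023, adjusted p = 0.00334; rho = 0.75, permutation p = 0.01026) and r = 0.74 in smoke (permutation p = 0.00385, adjusted p = 0.0372; rho = 0.52, permutation p = 0.07148). Leaving out the 2 samples farthest from the median of Adipoq in each group lowered r over a narrower range of Adipoq. In air, without air 1 and air 10, it was 0.80 for Plin1 (exact permutation p = 0.00963, adjusted p = 0.0827 over 18 relations to Adipoq) and 0.74 for Cidec (exact permutation p = 0.0224, adjusted p = 0.101). In smoke, without smoke 2 and smoke 10, it was 0.47 for Plin1 (permutation p = 0.148, adjusted p = 0.380) and 0.34 for Cidec (permutation p = 0.305, adjusted p = 0.687). None of these 4 relations passed the adjustment without the 2 farthest samples. With both groups in the fit, the slopes of Plin1, Cidec, Cfd and Retn were all still called without air 1 and smoke 2.

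For adipsin and resistin the relation passed the adjustment in smoke and not in air. Adipoq and Cfd had r = 0.94 in smoke (permutation p = 1e-05, the smallest these permutations can give, adjusted p = 0.00058; rho = 0.80, permutation p = 0.0019) and r = 0.70 in air (permutation p = 0.01155, adjusted p = 0.0837; rho = 0.56, permutation p = 0.07669). Without the 2 farthest samples r was 0.84 in smoke (permutation p = 0.00118, adjusted p = 0.0212 over the 18 relations) and 0.53 in air (exact permutation p = 0.140, adjusted p = 0.380). Adipoq and Retn had r = 0.91 in smoke (permutation p = 3e-05, adjusted p = 0.00087; rho = 0.65, permutation p = 0.01908) and r = 0.72 in air (permutation p = 0.01394, adjusted p = 0.0898; rho = 0.56, permutation p = 0.07753). Without the 2 farthest samples r was 0.73 in smoke (permutation p = 0.0138, adjusted p = 0.0827) and 0.67 in air (exact permutation p = 0.0479, adjusted p = 0.172). The difference between the groups was not tested, and no rho in the family had an adjusted p under 0.05. Leptin gave r = 0.62 in air (permutation p = 0.04374, adjusted p = 0.181) and -0.058 in smoke, and the air value came to -0.086 without air 1 and air 10. Fabp4 gave r = 0.44 and -0.15.

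**Figure D4:**
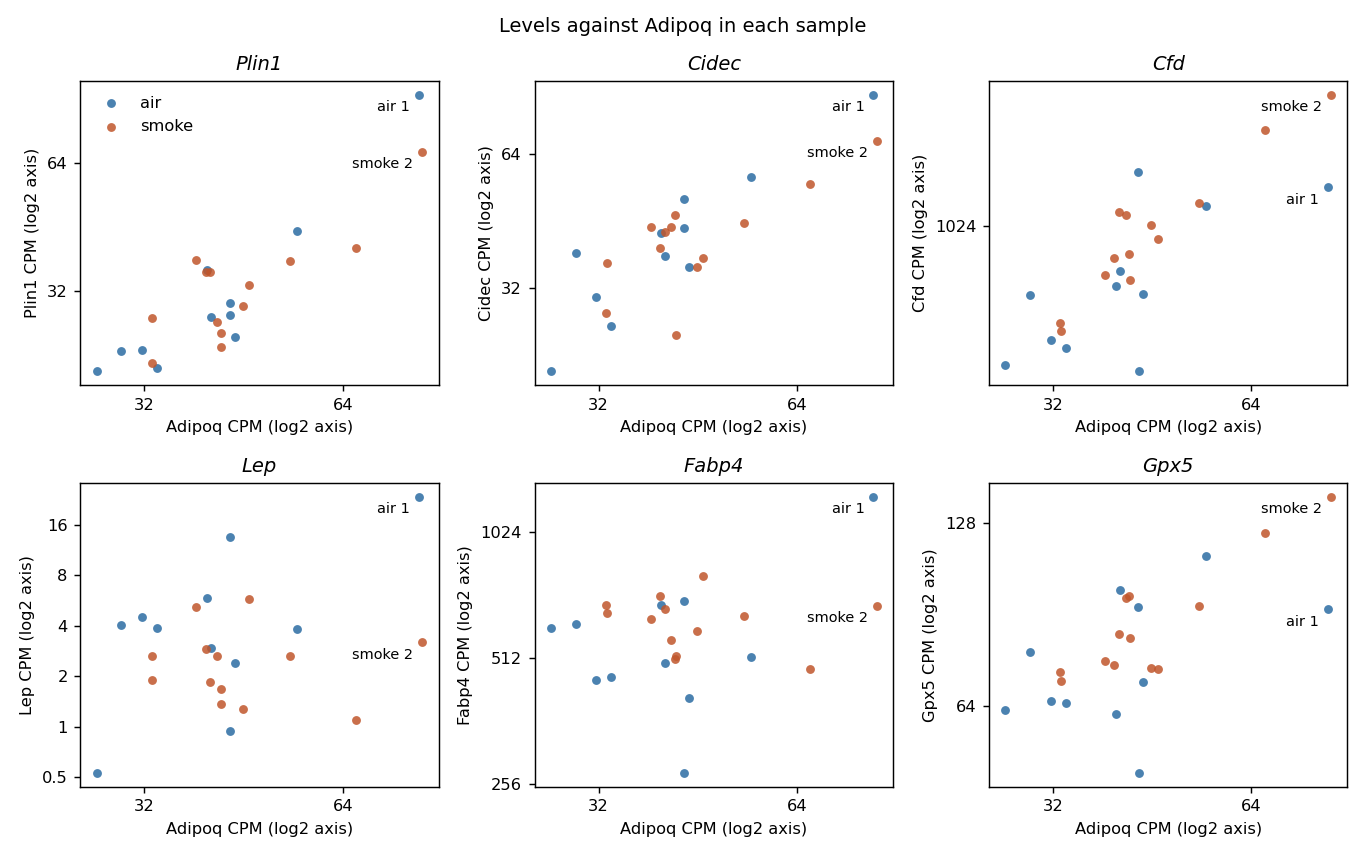
CPM of Plin1, Cidec, Cfd, Lep, Fabp4 and the epididymis gene Gpx5 (vertical, log2 axes) against CPM of Adipoq (horizontal, log2 axis) in 11 air and 13 smoke samples. Air 1 and smoke 2, both near 84 CPM of Adipoq, lie together for Plin1 and Cidec and apart for Lep, with 23.6 and 3.19 CPM.

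Genes outside the list of members also followed adiponectin. Of the genes that are no member, the 12 with the smallest p-values among those rising with it (over 24 samples) began with Scd1, the desaturase that makes oleate, with a slope of 0.92 and a standard error of 0.10 (adjusted p = 7.27e-07) over a range of 70.9 to 298.9 CPM. Hp, haptoglobin, had a slope of 0.89 (adjusted p = 2.2e-06), and Cebpa, the transcription factor named above, had 0.88 (adjusted p = 2.8e-06) over 13.3 to 43.6 CPM. Cebpa kept its call in all 24 fits that left out 1 sample. Fasn, the fatty acid synthase, had 0.73 (adjusted p = 3.36e-05), and Thrsp, an activator of lipogenesis, had 0.76 (adjusted p = 0.000258). The others of the 12 were Nnat (slope 0.83), Cdo1 (0.82), a cysteine dioxygenase, Slc1a5 (0.79), a glutamine carrier, Ifi27l2a (0.84), Mmd (0.76), C4b (0.69), a complement component, and Sparc (0.45), a matrix glycoprotein. 4 genes fell: Dusp10 (-0.75), Pcbp1 (-0.31), Mrps28 (-1.76) and Bsdc1 (-1.12), the last 2 at mean levels under 5 CPM. They were called in 21, 14, 11 and 9 of the 24 fits that left out 1 sample, in the same order.

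The number of genes that followed adiponectin depended on a few samples. It was 100 with all samples, 19 without smoke 2, 53 without smoke 10, 60 without smoke 4 and 192 without air 1. The 192 were 137 rising and 55 falling, and 66 of them were among the 100. No gene fell without smoke 2, smoke 10 or air 10. Without both of the samples farthest from the median, air 1 and smoke 2, it was 20.

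Other genes of the fat cell were counted in lists. Of 13 tested genes in a list of further adipocyte genes, 6 rose with adiponectin and none fell, where 0.945% of all genes rose, with a median slope of 0.66 against -0.0011 over all genes. They were Cebpa, Aoc3 (slope 0.81), an amine oxidase of the adipocyte surface, Slc7a10 (0.81), Rbp4 (0.99), the retinol carrier, Ces1d (0.77), a lipase, and Pck1 (0.72), which makes glycerol for triglyceride. The count fell to 2 without air 1 (Aoc3 and Cebpa), to 2 without smoke 2 (the same genes), to 3 without smoke 10 and to 1, Cebpa, without both air 1 and smoke 2 or with a replicate block. Adig, a small adipocyte protein, had a slope of 0.41 and was not called (adjusted p = 0.346). None of the 13 was called between smoke and air. Lipogenesis had 4 of 12 rising, Scd1, Fasn, Thrsp and Slc25a1 (0.81), the citrate carrier, and Acaca had 0.36 (adjusted p = 0.199). Without both air 1 and smoke 2 those called were Scd1 and Fasn. Fasn was also higher in smoke, at 46.3 ± 13.4 CPM (SD, n = 11) in air and 65.7 ± 16.7 CPM (SD, n = 13) in smoke, with a log2 fold change of 0.51 (adjusted p = 0.0308).

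Genes of lipid droplets and triglyceride synthesis, which muscle fibres also use, were counted next. Over all genes tested, 0.945% rose with adiponectin and 1.19% were lower in smoke. In the list of lipid droplet and lipolysis genes 1 of 12 tested rose, Lipe, the hormone-sensitive lipase, with a slope of 0.44 (adjusted p = 0.00726), a call lost without smoke 2 and with a replicate block. Plin2, which coats droplets in most cell types, had 0.09 (adjusted p = 0.910). 2 of the 12 tested genes of this list, named after their values were seen, fell in smoke. Plin5, the perilipin of oxidative tissue, went from 38.4 ± 11.0 CPM (SD, n = 11) to 24.5 ± 6.56 CPM (SD, n = 13), with a log2 fold change of -0.63 (adjusted p = 0.0098). Mgll, the monoacylglycerol lipase, went from 131 ± 14.9 CPM to 107 ± 15.3 CPM, with a log2 fold change of -0.29 (adjusted p = 0.0272). Of 7 triglyceride synthesis genes none rose with adiponectin, and Dgat2, which makes the last bond of triglyceride, fell in smoke with a log2 fold change of -0.39 (adjusted p = 0.0329).

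Regulators of fat cell formation and receptors for fat hormones were counted as well. None of 15 tested regulators of adipogenesis was called against adiponectin or by smoke, Cebpb among them with a slope of -0.42 (adjusted p = 0.435). None of 6 tested adipokine receptors and partners was called either, and the adiponectin receptor Adipor1 had a log2 fold change of 0.02 (adjusted p = 0.937). Of the brown adipocyte markers Ucp1, the uncoupling protein, had 1 count in all 24 libraries. Cox8b, a cytochrome oxidase subunit that is in this list and is also a muscle gene, fell in smoke with a log2 fold change of -0.19 (adjusted p = 0.0261).

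Markers of other cells in the muscle piece were counted beside the fat signal and the 0.945% of all genes that rose with adiponectin. Of 11 tested genes of fibro-adipogenic progenitors, the mesenchymal cells that can become fat, 1 rose with adiponectin (Pi16, slope 0.54, adjusted p = 0.0411), a call lost without any 1 of 9 samples. None was called among 13 endothelial, 10 slow fibre, 11 fast fibre, 7 macrophage, 2 lymphocyte, 4 tendon, 3 smooth muscle and 1 keratinocyte genes. 1 of 7 Schwann cell genes (Ncmap, slope 1.51, adjusted p = 0.0451) and 1 of 5 red blood cell genes (Hba-a1, slope 0.42, adjusted p = 0.0368) rose, calls lost without any 1 of 9 and of 7 samples. Hba-a1 has a near-identical copy, Hba-a2, so how their reads were split is uncertain. An endothelial score was taken as the mean log2 CPM of the 13 endothelial genes. Fabp4, which capillary endothelium also makes, had r = 0.64 with it in air (permutation p = 0.02748, adjusted p = 0.1385). In smoke the r of Fabp4 with this score was 0.29 (permutation p = 0.3287). Car3, which slow fibres make, was not called against adiponectin, and in air its log2 CPM had r = 0.34 with the slow fibre score (permutation p = 0.3093; rho = 0.10). In air it had r = -0.76 with the endothelial score (permutation p = 0.00588, adjusted p = 0.0487; rho = -0.73, permutation p = 0.01443, adjusted p = 0.158), which was -0.97 without air 1 and air 5. In smoke Car3 had r = -0.31 (permutation p = 0.3037). A strongly negative value without air 1 and air 5 was not particular to Car3. Without them r with the endothelial score was -0.90 for Cfd, -0.77 for Plin1, -0.72 for Cidec, -0.67 for Retn and -0.64 for Adipoq. With all air samples it was -0.25, 0.22, 0.085, 0.12 and 0.13, in the same order. Without these samples it was -0.30 for Plin4, -0.032 for Pparg, 0.071 for Lep and 0.49 for Fabp4. The values without these samples were not tested.

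Cell markers that differed by smoke stood beside the members' own fold changes. Over all genes 0.728% were called higher and 1.19% lower in smoke. In the myelin list 5 of 7 tested genes were higher. That list summed to 95.5 to 248.9 CPM in air (median 150) and 151 to 800 CPM in smoke (median 222). In the red blood cell list 3 of 5 were lower. The sum was 486 to 1444 CPM in air (median 765) and 369 to 883 CPM in smoke (median 558). Both tested lymphocyte genes, Ighm and Cd74, were lower in smoke, and 1 of 13 endothelial genes, Eng, was lower. Their part in the fold changes of Plin4 and Lep was not tested.

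The reproductive tract genes were set against adiponectin in the same way. All 21 tested genes of the epididymis and seminal vesicle lists had a positive slope on adiponectin, as had 5050 of the 10158 genes tested. Beside the 0.945% of genes called as rising, 4 of 13 epididymis genes were called (Gpx5, slope 0.56, adjusted p = 0.00726; Spink1, 0.56; Lcn8, 0.63; Defb25, 0.58) and 1 of 8 seminal vesicle genes (Svs6, 0.43). Without smoke 2, and with a replicate block, none of the 21 was called. Without air 1 there were 7 of 13 and 2 of 8, and the seminal vesicle count ran from 0 to 7 over the 24 fits that left out 1 sample, the highest without air 10. None was called between smoke and air, and the median log2 fold change was 0.18 and 0.23. The 2 samples highest in adiponectin differed here as well. Air 1 had 92.4 CPM of Gpx5, with 23.6 CPM of Lep and 1242 CPM of Fabp4, whereas smoke 2 had 142 CPM of Gpx5, the highest of all samples, with 3.19 CPM of Lep and 681 CPM of Fabp4.

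A fit with both adiponectin and the epididymis score (the mean log2 CPM of the 13 tested epididymis genes) was added after the values were seen. With the epididymis score held, 0.187% of 10158 genes rose with adiponectin and none fell, 556 being at an unadjusted p under 0.05. Plin1 kept a slope of 1.23 with a standard error of 0.15 (adjusted p = 9.34e-06), Cidec 0.83 with 0.14 (adjusted p = 0.00297) and Cfd 0.44 with 0.095 (adjusted p = 0.0304). Retn had 0.51 and was not called (adjusted p = 0.201). Lep rose, with a slope of 2.39 and a standard error of 0.36 (adjusted p = 0.000338). Without air 1 none of these was called: the slope was 0.88 for Plin1 (adjusted p = 0.0771), 0.65 for Cidec (0.349 adjusted), 0.46 for Cfd (0.318 adjusted) and 1.69 for Lep (0.467 adjusted). The call of Cfd was also lost without air 4, 8 or 10 and without smoke 1 or 11. Among the genes outside the list of members, 11 of the 12 named risers were still called, Thrsp was not (slope 0.60, adjusted p = 0.140), and none of the 4 fallers was. Without air 1 the risers still called were Hp, Scd1 and C4b, and without smoke 2 there were 7. Of the further adipocyte genes 1 of 13 rose, Cebpa, against 6 without the score, while the median slope of the list was 0.53 against 0.66. The call of Cebpa was lost without air 1. Of the lipogenesis genes 2 of 12 rose, Scd1 and Fasn, against 4, with a median slope of 0.27 against 0.32, and without air 1 the one called was Scd1. Pi16 was called with all samples but in only 4 of the 24 fits that left out 1 sample, and Lipe, Ncmap and Hba-a1 were not called with all samples.

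In the same fit, slopes on the epididymis score with adiponectin held were tested on the 10145 genes outside the score, and p was adjusted over these. Of them 0.177% were called, 0.148% rising and 0.0296% falling. Cfd rose with the score, with a slope of 0.72 and a standard error of 0.13 (adjusted p = 0.00571), a call lost without air 7 (adjusted p = 0.0806). Lep fell with it, with a slope of -2.69 and a standard error of 0.55 (adjusted p = 0.0183), a call lost without air 1, 7 or 11 or smoke 10 (adjusted p = 0.0922, 0.146, 0.0853 and 0.0553). Retn had 0.63 (adjusted p = 0.186), Fabp4 -0.72 (adjusted p = 0.281), Plin1 -0.14 (adjusted p = 0.862) and Cidec 0.23 (adjusted p = 0.736). 6 of the 8 seminal vesicle genes rose with the score. Within these samples, leptin and adipsin thus had slopes of opposite sign on the epididymis score at a given level of adiponectin. How much the transcripts of the reproductive tract contributed to any member was not tested.

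**Figure D5:**
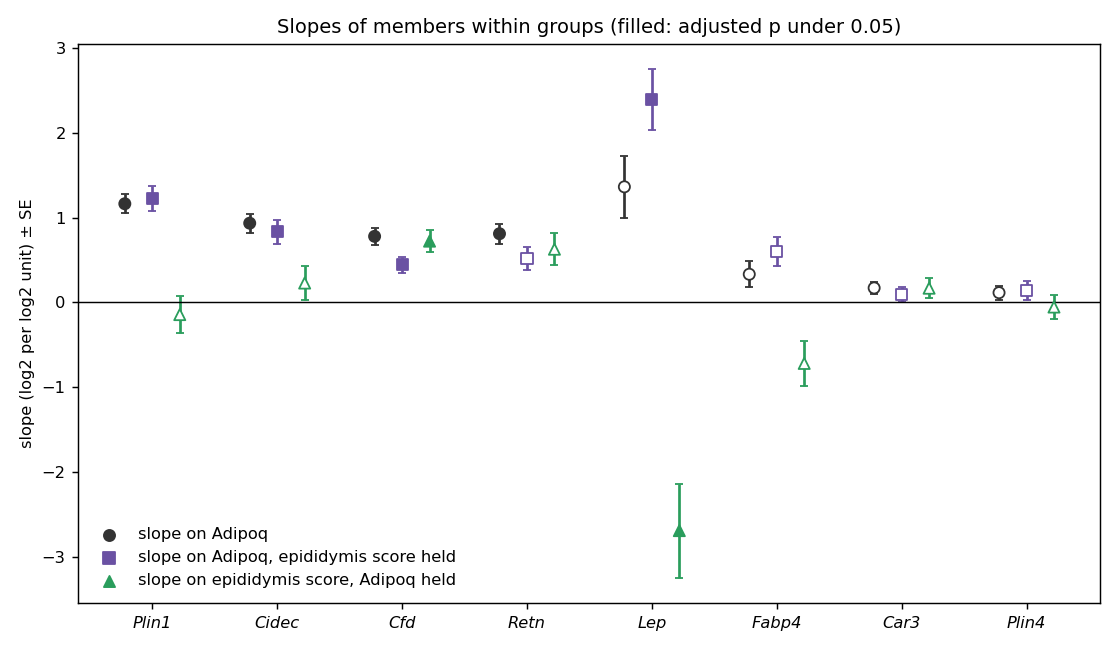
Slopes of the 8 members on Adipoq (circles), on Adipoq with the epididymis score held (squares) and on the epididymis score with Adipoq held (triangles), in log2 units per log2 unit with the standard error, filled where the adjusted p was under 0.05. Plin1, Cidec and Cfd are filled in both fits on Adipoq, and on the epididymis score Cfd at 0.72 and Lep at -2.69 lie on opposite sides of 0.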

How the data were processed

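Per the labels' protocols, RNA from frozen plantaris muscle was made into 3′-end libraries and read on an Illumina HiSeq. The authors deposited raw read counts per Ensembl gene ID, 1 column per sample. STAR, DESeq2 and the mouse build mm9 are named in the submitters' processing notes. The counting tool, annotation, strand setting and any use of molecular identifiers are not given in the sources used here, so reads may include PCR copies. Sample positions in the sequencing sheet, per the file headers, separate the groups, so sheet position and group cannot be told apart. Symbols and coordinates came from GENCODE M21 (GRCm38), which held 47224 of the 47643 IDs (99.1%). The deposited IDs run to number 109578. Promoter sequences are RefSeq's (GRCm38.p6).

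Counts were filtered with filterByExpr (minimum count 10), TMM-scaled and tested with edgeR 4.0.16 (quasi-likelihood, R 4.3.3), first smoke against air on all 24 samples, then against log2 CPM of Adipoq (prior count 2) with group as a term. The steps of both of these fits were tested on simulated data. Benjamini-Hochberg adjustment ran over all genes tested, with 0.05 as the limit for a call. CPM values are TMM-scaled, and floors of 3 counts use library totals. Correlations used two-sided permutation tests with 100000 resamples (numpy 2.4.6), or all orderings where 9 samples remained. The permutation test of Pparg between groups used scipy 1.17.1. DESeq2 1.42.0 and limma 3.58.1 (voom) were alternatives, with other scalings and filters, a replicate block, covariates and leaving out each sample. Counts of 133 sample pairs within groups differed by more than sampling noise, so none were merged.

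The members and lists were chosen with earlier results of these data known. Named were all members, the 12 rising and up to 5 falling non-members with the smallest p-value against Adipoq, and in each list the first gene and up to 4 with the smallest p-value. Other names, the fits with the epididymis score and the counts in lists with samples left out were chosen after the values were seen.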

Additional observations from a re-analysis of the deposited data

How the results depend on the processing

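Under the alternatives other than leaving out a sample, 265 values for the members and the counts of calls were taken as unchanged. The others are given here. For a fold change, slope or correlation, unchanged meant the same direction and the same outcome of the call. For a count of calls it meant within a factor of 1.5, and for a mean CPM a shift smaller than the SD. For smoke against air, Plin4 was -0.25 and no longer called with upper-quartile scaling and without the 2 samples highest in Adipoq. Lep was called at -1.23 without the filter and at -1.21 with Adipoq also held. Values near 0 changed sign: Cidec was 0.042 with limma-voom and 0.065 without the 2 highest samples, Plin1 was -0.070 with Adipoq held and -0.068 with no filter as well, and with the epididymis score held Adipoq was -0.046, Plin1 -0.15 and Car3 -0.0060. DESeq2 called 323 genes against 195. For slopes on Adipoq, 225 genes were called without the filter against 100, 20 without the 2 farthest samples, 4 in air alone, 61 on Plin1 in its place and 19 with the epididymis score held (18 of the 19 among the 100). Without the filter that last fit called 40. Lep was called at 1.39 without the filter, 1.17 on Plin1 and 2.39 with the epididymis score held. Retn was not called in air alone (0.55) or with the epididymis score held (0.51), nor Cfd in air alone (0.63). Fabp4 was -0.29 without the 2 farthest samples and -0.055 in smoke alone. Of the named genes that are no member, Cebpa rose with Adipoq in all 12 alternatives, Scd1, Hp, Nnat, Slc1a5, Fasn and Ifi27l2a in 11, Thrsp, C4b, Cdo1 and Sparc in 9 and Mmd in 8. Pcbp1 was called in 7 of 12, Dusp10 in 6 of 12, Mrps28 in 5 of 10 and Bsdc1 in 3 of 10. The cause of these shifts was not tested.

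Leaving out each sample in turn gave log2 fold changes of -0.28 to -0.21 for Plin4, -1.35 to -0.73 for Lep, -0.098 to 0.14 for Cidec and -0.11 to 0.29 for Plin1, and slopes of 0.43 to 1.57 for Lep and -0.12 to 0.41 for Fabp4. The count of genes called was 19 to 192 on Adipoq, 4 to 22 with the epididymis score held, and 18 to 42 on the epididymis score with Adipoq held, where p was adjusted over all genes. That fit called 31 genes with all samples, 9 genes of the score among them, and 18 with those left out before adjustment. In that last fit the slope of Plin1 ran from -0.32 to 0.093, with the positive value without air 1, and that of Plin4 from -0.12 to 0.052, positive without air 5.

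Samples with the same replicate number in both groups did not deviate together: the mean correlation was -0.0059 over 11 pairs (-0.275 to 0.140) and 0.0011 over 132 other pairs. In a fit on 22 samples with a replicate block, Cidec was 0.0088, 138 genes were called between smoke and air, 16 genes followed Adipoq and Retn, at 0.66, was not among them. Depth limits Pparg and, in air 10, air 11 and smoke 10, Lep. Reads were not linked to molecules, so floors cover counting error only.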
